A study of Mus musculus with 4 samples.

Results

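The 4 tissue inhibitors of metalloproteinases, Timp1, Timp2, Timp3 and Timp4, and the membrane-anchored inhibitor Reck were followed in tissue labelled as mouse knee cartilage after joint surgery. The genes were chosen by name from a table of 24421 genes, and all 5 were found and had enough counts to be tested. By the labels, RNA was measured in superficial-zone cartilage of the medial femoral condyle, 8 weeks after surgery, in C57BL/6J mice M04 and M05. In each mouse 1 knee had its medial meniscus destabilized (DMM), a model in which loss of meniscal anchorage leads to osteoarthritis, and a sham-operated knee of the same animal served as its control. This gave 2 DMM and 2 sham libraries, each from 1 knee. No source used here gives the age of the mice. Both mice are wild type by their sample labels, while the series' design text calls M05 a knockout without naming a gene, so a difference between the mice is a difference between 2 animals.

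TIMPs are small secreted proteins that bind the active site of matrix metalloproteinases (MMPs) and block it. Timp3 stays bound to the matrix and also inhibits ADAM and ADAMTS proteases, among them the aggrecanases that cut the proteoglycan of cartilage, while Timp2 also takes part in the activation of proMMP-2 on the cell surface. Timp1 is the TIMP gene most readily induced by cytokines, through AP-1 and STAT factors, and Timp4 is the most tissue-restricted. Reck is a glycolipid-anchored protein known for restraining Mmp2, Mmp9 and Mmp14 and for its role with Adgra2 as a co-receptor for Wnt7 ligands.

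The inhibitory edge of a TIMP is the start of the mature protein, where the first cysteine sits on the zinc of the protease. The coding stretches below begin at that codon and run for 69 bases. They are shown because the members are paralogs, and reads can be told apart only where the sequences differ. They were read from the GENCODE M21 transcripts (GRCm38), 5′ to 3′, and capitals mark the 3 cysteine codons in each.
Timp1: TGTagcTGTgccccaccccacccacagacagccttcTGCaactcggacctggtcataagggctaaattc
Timp2: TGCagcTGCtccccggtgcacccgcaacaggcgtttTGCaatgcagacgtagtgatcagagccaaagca
Timp3: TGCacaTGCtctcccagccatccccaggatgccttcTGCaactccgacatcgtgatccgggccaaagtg
Timp4: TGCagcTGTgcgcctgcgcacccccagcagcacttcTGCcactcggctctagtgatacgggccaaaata

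The 3 cysteine codons lie at the same places in all 4 stretches, and the bases were 62.3% to 71.0% identical between pairs. Over the whole transcripts of the 5 members, the longest run shared by any of the 10 pairs was 18 bases, between Timp3 and Timp4. This is far shorter than the 100-base reads. All counts of the 5 members were whole numbers, although the deposited counts are estimates that need not be whole.

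The TIMP genes lie inside or around other genes, and the sources do not say whether the libraries kept strand. In the GENCODE M21 annotation Timp1 lies inside Syn1, Timp3 inside Syn3 and Timp4 inside Syn2, each on the opposite strand. Exons of Timp1 and Syn1 shared 0 bases, those of Timp4 and Syn2 shared 90, and those of Timp3 and Syn3 shared 1733. The synapsin genes themselves were low. Syn1 lay between 1.63 and 2.81 CPM (counts scaled to library size), Syn2 between 0.0741 and 2.13 CPM and Syn3 between 1.72 and 3.78 CPM. Syn3 was thus low beside Timp3, which lay between 61.6 and 110 CPM, but Syn2 reached the order of Timp4 in the DMM library of M05, with 2.13 against 3.12 CPM. Whether reads of these neighbours entered the TIMP counts was not tested. Nor was it tested whether TIMP reads in shared bases were dropped or given to the neighbours, which would also change the synapsin counts. Timp2 holds Cep295nl and Reck a small RNA gene inside them, with no shared exon bases.

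The total count per library was between 12712425 and 19336628, and CPM values below are scaled by TMM, a normalization for library composition. Haemoglobin rows held a large share of the counts, which was lower in the DMM knee of both mice, at 30.3% sham and 25.7% DMM in M04 and 35.3% and 29.4% in M05. Markers of chondrocytes, the cells of cartilage, were detected in every library. The 13 of 15 listed markers that were matched by name summed in M04 to 5440 CPM after sham surgery and 6330 CPM after DMM. In M05 they summed to 1440 and 4660 CPM. The sham library of M05 stood apart in this, and in bulk tissue fewer cells of a type and less RNA per cell cannot be told apart. Blood and marrow markers held far more of the counts, with erythroid sums of 187000 to 320000 CPM and neutrophil sums of 37800 to 63800 CPM. The levels below are thus those of mixed tissue.

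Timp1 rose most of the 5 members after DMM, and it alone passed the test over all genes. In M04 it had 14.0 CPM after sham surgery and 33.9 CPM after DMM, and in M05 18.4 and 36.1 CPM. Both DMM libraries were above both sham libraries, and the lower DMM value was well clear of the higher sham value. The counts behind these levels were 189 and 507 in M04 and 314 and 440 in M05. In a model with the mouse as a block, Timp1 was higher by 1.12 on the log2 scale (SE 0.19, with an adjusted p of 4.28e-06 in edgeR's quasi-likelihood test) and a 95% interval of 0.75 to 1.5.

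Timp1 was 2.42-fold higher in the DMM knee of M04 and 1.96-fold higher in that of M05. The exact 95% intervals of these log2 ratios, which cover counting error only, were 1.03 to 1.52 in M04 and 0.76 to 1.19 in M05, and they overlap. By the size of its p-value Timp1 ranked 14 of 13103 genes, and by fold change 198. Of the 13103 genes, 0.633% were called higher and 0.0153% lower in DMM at an adjusted p under 0.05, and of the 5 members 1 was called higher and 0 lower.

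**Figure D1:**
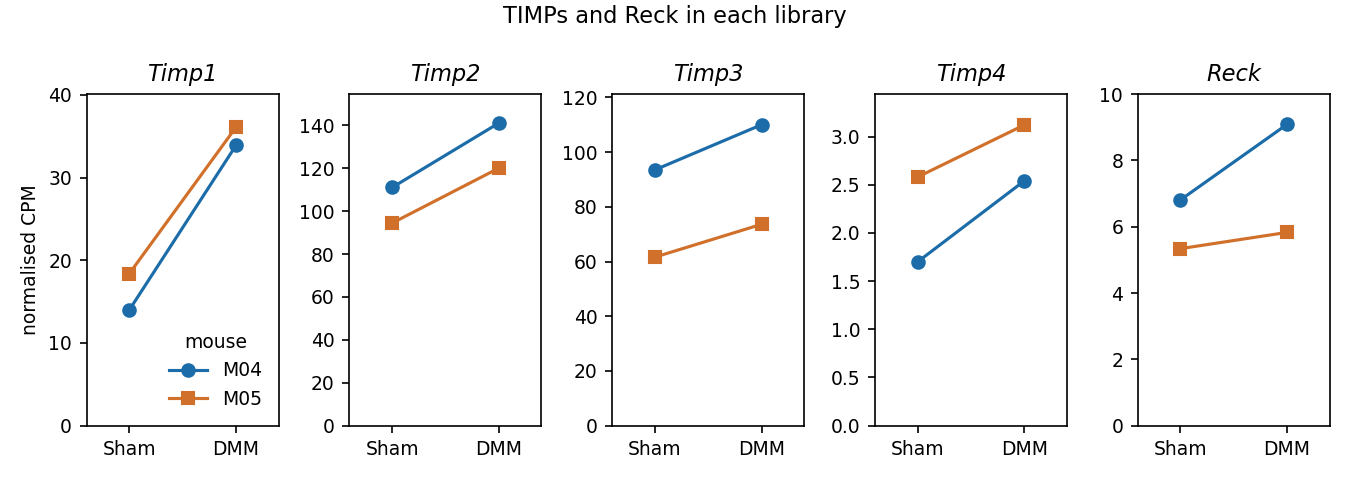
Level of each member in normalised CPM (y axis, from 0, a separate scale for each gene) in the sham and DMM library of each mouse. Points are single libraries and lines join the knees of a mouse. The Timp1 lines run from 14.0 to 33.9 CPM (M04) and 18.4 to 36.1 CPM (M05), while the Timp2 and Timp3 lines rise less and stand apart by mouse.

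Only 1 residual degree of freedom stands behind the Timp1 call, and its spread was taken from the trend across genes, so its p-value says nothing of the spread between animals. Without the mouse term its fold change was 1.11 and its adjusted p 0.512. When 1 library was left out, which also removes the mouse term, it passed without the sham library of M04 (0.93, adjusted p = 0.0456). It did not pass without the sham library of M05 (1.32, adjusted p = 0.0557), the DMM library of M04 (1.16, adjusted p = 0.504) or the DMM library of M05 (1.06, adjusted p = 0.932). DESeq2 with both terms gave 1.12 (adjusted p = 0.049), and limma on log2(FPKM + 1) gave 1.09 (adjusted p = 1).

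**Figure D2:**
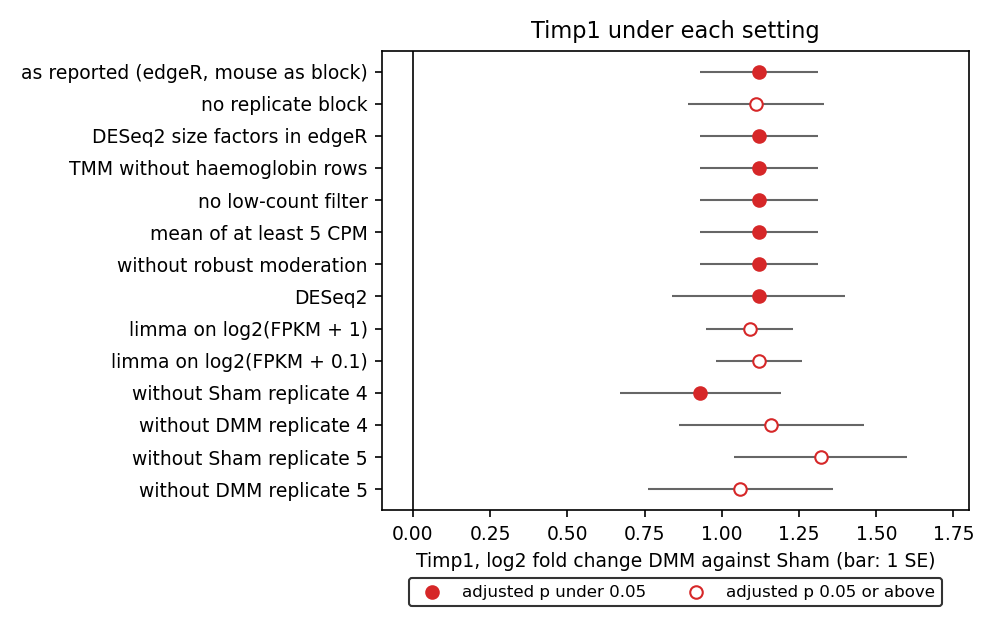
Fold change of Timp1 in DMM against sham (x axis, log2) under the reported setting and 13 alternatives (y axis), with bars of 1 SE. The size stays between 0.93 and 1.32 throughout, and the filled points mark the settings with an adjusted p under 0.05 (the reported one and 7 of the 13 alternatives).

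Timp2, which encodes the inhibitor that also helps activate proMMP-2, had the highest counts of the family. In M04 it had 111 CPM after sham surgery and 141 CPM after DMM, in M05 94.4 and 120 CPM. The DMM libraries were above the sham libraries in both mice and the groups did not overlap, with the same 1.27-fold ratio in each mouse. Its log2 fold change of 0.35 (SE 0.15) had an unadjusted p of 0.0238 and did not pass over all genes (adjusted p = 0.742). The 95% interval of this difference was 0.05 to 0.65.

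Timp3, the matrix-bound inhibitor of MMPs and aggrecanases, followed the mouse more than the surgery. Its sham and DMM levels were 93.5 and 110 CPM for M04, against 61.6 and 73.6 CPM for M05. Each DMM knee was slightly above its own sham knee, with ratios of 1.18 and 1.19, but the sham library of M04 was above the DMM library of M05, so the groups overlapped. The log2 fold change in DMM was 0.25 (SE 0.16, adjusted p = 1), with an interval of -0.06 to 0.55. It turned to -0.03 without the sham library of M05 and to -0.07 without the DMM library of M04, in fits that have no mouse term.

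Timp4 and Reck were near the lower end of what these libraries resolve. Timp4 had 23 sham and 38 DMM counts in M04 and 44 and 38 in M05, which is 1.70, 2.54, 2.58 and 3.12 CPM in the same order. The groups overlapped slightly, and the log2 fold change of 0.42 had an SE of 0.54 (adjusted p = 1). Its interval of -0.64 to 1.48 holds changes as large as that of Timp1, so a change of that size in Timp4 cannot be told from none at this depth.

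Reck had 92 sham and 136 DMM counts in M04 and 91 and 71 in M05, or 6.81, 9.09, 5.34 and 5.83 CPM. The sham library of M04 was above the DMM library of M05, so the groups overlapped. Its log2 fold change was 0.28 (SE 0.33, adjusted p = 1), with an interval of -0.37 to 0.92. In M05 the fold rested on fewer DMM counts than sham counts, from a DMM library that is also shallower, and its counting interval on the log2 scale ran from -0.34 to 0.59. The fold change was -0.05 without the DMM library of M04, in a fit with no mouse term.

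In CPM all 5 members were higher in the DMM knee than in the sham knee of the same mouse, in both mice, which held for 23.2% of all genes tested. In 2 of the 5, Timp1 and Timp2, both DMM libraries were above both sham libraries, which held for 13.2% of all genes. The median log2 fold change of the 5 was 0.35, beside -0.01 over all genes tested. These counts describe 5 genes in 4 libraries, and Timp1 alone of the 5 passed the test. The mouse and the surgery together leave no degree of freedom for a test of whether the response differed between the mice. On the log2 scale the DMM to sham ratio was, for M04 and then M05, 1.27 and 0.97 for Timp1, 0.35 and 0.35 for Timp2, 0.24 and 0.25 for Timp3, 0.54 and 0.26 for Timp4 and 0.41 and 0.12 for Reck.

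**Figure D3:**
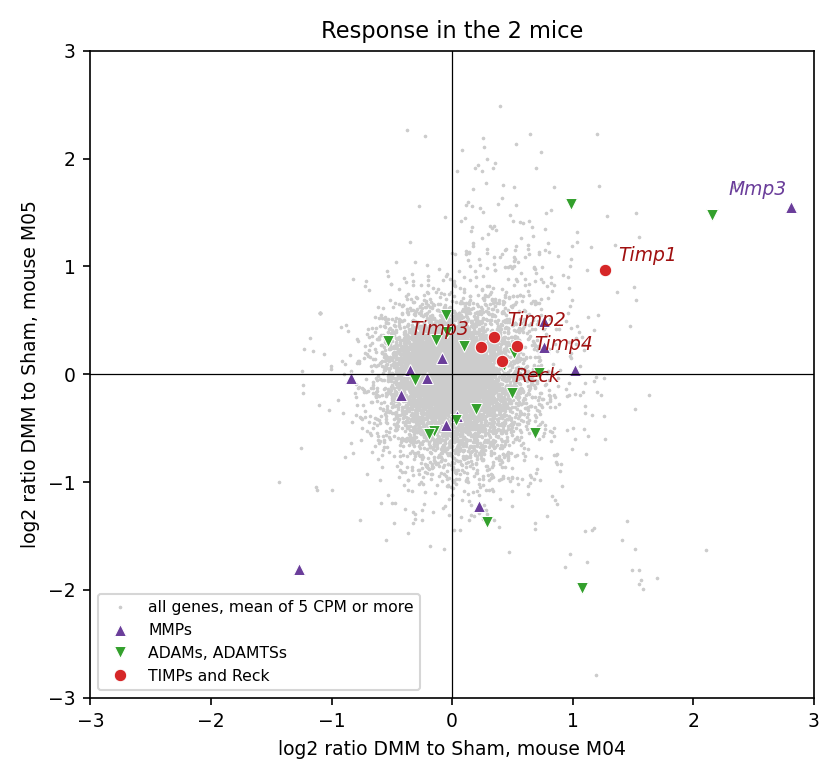
Log2 ratio of DMM to sham in M04 (x axis) and M05 (y axis) for the 5 members, the tested MMP, ADAM and ADAMTS genes and, in grey, all genes whose mean reached 5 CPM and whose ratios lie within the axes. The members lie at the upper right, Timp1 at 1.27 and 0.97, and the proteases lie on all sides, with Mmp3 at 2.81 and 1.55.

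Levels of different genes were compared per transcript length, in FPKM from the authors' table. In the sham libraries Timp2 was highest at 30.2 ± 3.6 FPKM (SD, n = 2), followed by Timp1 at 23.7 ± 4.4 and Timp3 at 17.4 ± 5.2 FPKM. Timp1 and Timp3 overlapped in the sham libraries, at 20.6 to 26.9 and 13.8 to 21.1 FPKM, and Timp2 at 27.6 to 32.7 FPKM was only just above Timp1. After DMM the order at the top was the reverse. Timp1 had 51.3 ± 2.6 FPKM (SD, n = 2) and Timp2 38.3 ± 4.1 FPKM, and their libraries did not overlap, at 49.5 to 53.2 against 35.5 to 41.2 FPKM. Timp3 came next, at 20.6 ± 5.7 FPKM.

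Timp1 thus came after Timp2 in both sham libraries, and after Timp3 too in that of M04, and before both in each DMM library. The ratio of Timp1 to Timp2 in FPKM went from 0.63 to 1.2 in M04 and from 0.972 to 1.5 in M05. As a share of the summed FPKM of the 4 TIMPs, Timp1 went from 27.2% to 42.1% in M04 and from 38.2% to 49.6% in M05. The change in order was not tested.

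Timp4 and Reck were far below the other members and overlapped each other. Timp4 had 1.77 ± 0.50 FPKM in sham and 2.07 ± 0.03 FPKM in DMM libraries, and Reck 1.44 ± 0.26 and 1.75 ± 0.50 FPKM (SD, n = 2 each). For Timp4 in M05 the tables differ in direction: it went from 2.58 to 3.12 in normalised CPM but from 2.13 to 2.05 in FPKM.

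**Figure D4:**
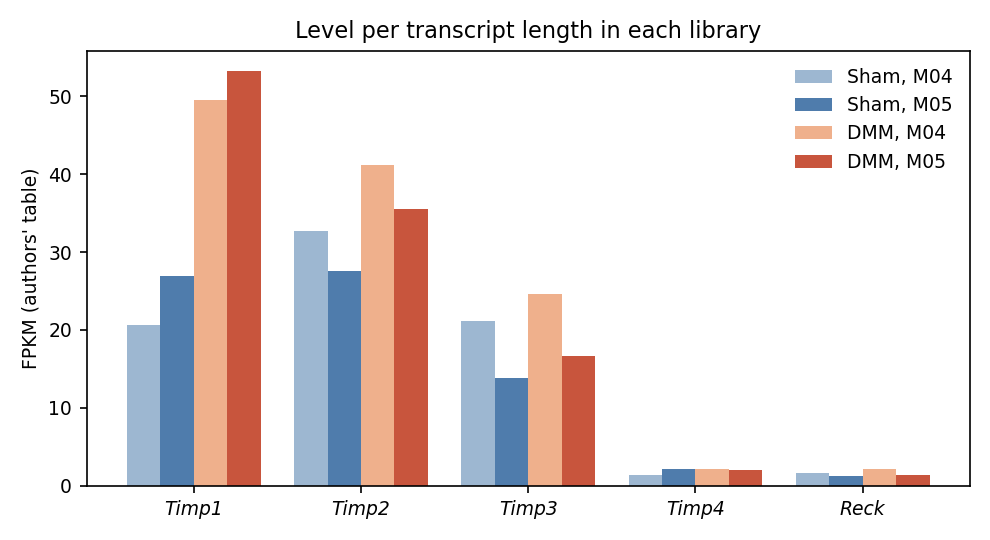
FPKM of each member (y axis, from 0) in the 4 libraries, grouped by gene, from the authors' table. In sham libraries the Timp2 bars are highest, at 27.6 and 32.7 FPKM, and in DMM libraries the Timp1 bars, at 49.5 and 53.2 FPKM.

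The second comparison set M05 against M04, with the surgery in the model. Timp3 was lower in M05 by a log2 value of -0.59 (SE 0.16, adjusted p = 0.0116 in edgeR). It lay at 93.5 and 110 CPM in M04 and at 61.6 and 73.6 CPM in M05, with no overlap. The call was missed without the surgery term (-0.59, adjusted p = 0.125), with TMM computed without haemoglobin rows (-0.59, adjusted p = 0.0590) and in 3 of the 4 fits that leave out a library. Those were the fits without the sham library of M04 (-0.69, adjusted p = 0.775), the DMM library of M04 (-0.47, adjusted p = 0.555) and the sham library of M05 (-0.47, adjusted p = 0.186).

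The other members did not pass between the mice. Timp1 had a log2 difference of 0.24 (SE 0.19), Timp2 of -0.23 (SE 0.15), Timp4 of 0.44 (SE 0.54) and Reck of -0.50 (SE 0.33), with adjusted p-values from 0.529 to 0.794. That makes 1 of 5 members called, where 2.60% of all genes tested were called in either direction. Chondrocyte markers were also lower in M05, with 9 of 13 past the threshold, and the part of this in the Timp3 difference was not tested. The DMM to sham log2 ratios of Timp3 were 0.24 in M04 and 0.25 in M05, beside median ratios of these markers of 0.26 and 1.57, a difference that was not tested.

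Several receptors known to bind TIMPs or to act with Reck also differed between the mice. Of 11 tested genes of that list, 4 were lower in M05 and 1 higher, beside 215 lower and 126 higher of all 13103 genes tested. Lrp1, the endocytic receptor that clears Timp3 and other TIMPs, was lower by a log2 value of -0.74 (SE 0.16, adjusted p = 0.000443), from 105 and 107 CPM in M04 to 58.0 and 69.1 CPM in M05. Kdr, a growth factor receptor that Timp3 binds, stood at -0.92 (adjusted p = 0.0156), Lrp5 at -0.61 (adjusted p = 0.0370) and Lrp6 at -1.03 (adjusted p = 0.0340). Cd63, a tetraspanin that Timp1 binds, was higher by 0.50 (adjusted p = 0.0444). These 5 calls, like those of Mmp2 and Serping1 between the mice, were all lost in 4 alternatives that called 0 genes between the mice. The 4 were the fit without the surgery term, limma at either pseudocount and the fit without the sham library of M04. Other alternatives lost calls too, and DESeq2 shared 62 of the 341 calls of the reported fit. Which of these genes kept a call there is not given here. Itgb1, Cd44 and Sdc1, the others with the highest FPKM, did not pass in either comparison. In DMM against sham 0 of these 11 passed in edgeR, with 0 at an unadjusted p under 0.05, and DESeq2 and limma also gave 0. Adgra2, the partner of Reck, had a log2 fold change of 0.61 (adjusted p = 0.996) with levels of 5.41 and 8.69 CPM in M04 and 5.81 and 8.38 CPM in M05. Wnt7a had 0 counts in every library.

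Among the proteases that TIMPs inhibit, the differences had both signs. Of 23 MMP genes listed, 15 were tested, and 1 was higher in DMM and 0 lower, beside 0.633% and 0.0153% of all genes tested. At an unadjusted p under 0.05 there were 6 of the 15, beside 681 of all 13103 genes tested, namely Mmp2, Mmp3, Mmp13, Mmp14 and Mmp23 with positive and Mmp16 with a negative fold change. The gene past the threshold was Mmp3, a stromelysin, with 0.741 sham and 6.02 DMM CPM in M04 and 0.469 and 1.64 CPM in M05. Its log2 fold change was 2.46 (SE 0.64, adjusted p = 0.0277), and it was called in 3 of 13 alternatives, namely no low-count filter, no robust moderation and leaving out the sham library of M04. The median over the 15 was -0.12, and 6 of them were above sham in both mice and 5 below in both. Of all 13103 genes tested, 3044 were above sham in both mice and 3123 below in both. The collagenase Mmp13 had 53.7 sham and 109 DMM CPM in M04, beside 77.0 and 79.3 CPM in M05 (0.53, adjusted p = 0.103). Mmp2 (0.50, adjusted p = 0.178) and the membrane-bound Mmp14 (0.50, adjusted p = 0.190) had log2 ratios of 0.75 and 0.76 in M04 and of 0.24 each in M05. Between the mice Mmp2 was the MMP called, lower in M05 by a log2 value of -0.64 (adjusted p = 0.00597).

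The MMPs with the highest levels were Mmp9, a gelatinase known from neutrophils and osteoclasts, and Mmp8, the neutrophil collagenase. Mmp9 lay between 303 and 339 FPKM and Mmp8 between 218 and 292 FPKM, and these 2 made up 78.9% to 86.6% of the summed MMP FPKM. Neither passed in DMM against sham, with log2 fold changes of 0.03 and -0.12. Neutrophil markers were abundant in every library, where 8 of 9 listed markers summed to 37800 to 63800 CPM.

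The ADAM and ADAMTS families, some of whose members Timp3 inhibits, had no call in DMM against sham. Of 26 genes 19 were tested and 0 passed in edgeR, with 2 at an unadjusted p under 0.05, and DESeq2 and limma also gave 0. Their median log2 fold change was 0.12. Adam8, Adam15, Adam10 and Adamts2 were highest per length. Adam10, the sheddase that Timp3 and Reck restrain, had a log2 fold change of -0.34 (adjusted p = 0.891), Adam15 of 0.18, Adam8 of -0.10 and Adamts2, which trims procollagen, of 0.26. The aggrecanases were low: Adamts5 lay between 0.966 and 1.44 FPKM and Adamts4 between 0.0478 and 0.304 FPKM.

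The summed FPKM of the 4 TIMPs was set against that of the 23 MMPs as a description of the inhibitor to protease balance in RNA. The ratio was 0.113 after sham surgery and 0.176 after DMM in M04, beside 0.102 and 0.146 in M05. It was higher in the DMM knee of both mice, with a mean log2 change of 0.584 (SD 0.087, n = 2). Without Timp1 the mean change was 0.271. With Mmp8 and Mmp9 left out, the ratio was 0.844 and 0.836 in M04 and 0.721 and 1.01 in M05, so M04 was level and M05 higher after DMM. Mmp24 is listed at 0 FPKM in all libraries although it had counts, so it adds nothing to these sums.

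**Figure D5:**
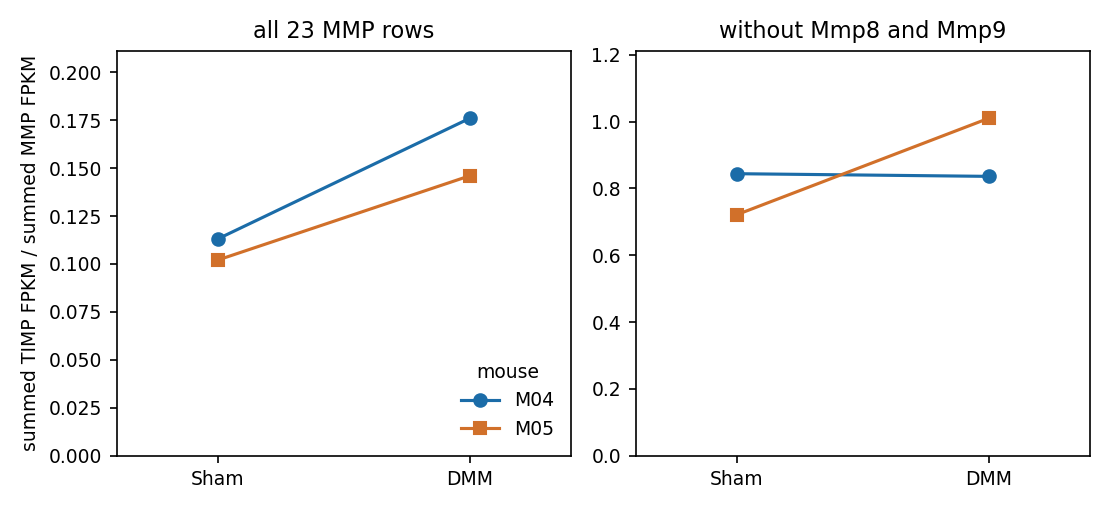
Summed FPKM of Timp1 to Timp4 divided by that of the MMPs (y axis, from 0) in the sham and DMM library of each mouse, with all MMP rows (left) and without Mmp8 and Mmp9 (right). The ratio is higher after DMM in both mice on the left (0.113 to 0.176 and 0.102 to 0.146), and on the right it is level in M04 (0.844 and 0.836) and higher in M05 (0.721 and 1.01).

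Among 17 genes of other protease inhibitors and related proteins, not all of them inhibitors of matrix proteases, 10 were tested. Of these 1 was higher in DMM and 0 lower, with 2 at an unadjusted p under 0.05. Over all genes tested, 0.633% were called higher. Pcolce, an enhancer of procollagen processing whose cleaved fragment inhibits MMPs, was higher by 0.93 on the log2 scale (SE 0.16, with an adjusted p of 2.84e-06). In M04 it had 56.1 sham and 109 DMM CPM, in M05 48.1 and 90.2 CPM, and it was called in 7 of 13 alternatives. It was not called without the mouse term, with limma at either pseudocount, or when a library other than the sham library of M04 was left out. The cystatin Cst3 (0.21), the leukocyte protease inhibitor Slpi (-0.01), the serpins Serpine2 (0.29) and Serpinf1 (0.37) and the broad protease trap A2m (0.37) did not pass. The median over the 10 was 0.25, and 7 of them were above sham in both mice, beside 23.2% of all genes tested. Serping1, the C1 inhibitor, was lower in M05 than in M04 (-0.56, adjusted p = 0.0213).

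Of the pathways known to induce Timp1, no tested gene was called in DMM against sham, and 5 listed genes were too low to be tested. Of 28 listed cytokine, receptor, AP-1 and STAT3 pathway genes 23 were tested, and 0 passed in edgeR, with 0 at an unadjusted p under 0.05 and 0 in DESeq2 and limma. Their median log2 fold change was -0.03. Tgfb1 (0.04), Jund (0.02), Stat3 (0.15) and Junb (-0.36) were the highest per length. The AP-1 gene Fos had 2.52 sham and 2.88 DMM CPM in M04, with 4.22 and 6.98 CPM in M05 (0.48, adjusted p = 1). Il11, an inducer that signals through STAT3, had 0 counts in both sham libraries and 7 and 8 counts in the DMM libraries of M04 and M05 (0.468 and 0.657 CPM). The low-count filter removed it, so it has no test and is not in the counts above. It was picked after its values were seen, and the share of all genes with such counts was not determined. The other 4 untested genes were Il6, Lif, Fosb and Fosl1. Il6 had 5 sham and 0 DMM counts in M04 and 6 and 5 in M05, and Lif 3 and 0, then 3 and 2. In the same order Fosb had 10 and 3, then 3 and 2, and Fosl1 0 and 0, then 4 and 0. The oncostatin M receptor Osmr had 2.59 sham and 5.88 DMM CPM in M04, with 2.99 and 3.28 CPM in M05 (0.66, adjusted p = 1).

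The Timp1 start region holds the AP-1-like element TGAGTAA, for which this promoter is known. The 30 bases around it, read from the RefSeq promoter table (GRCm38.p6, chrX:20870181-20870210, plus strand, where the counts were made on GRCm39), are shown 5′ to 3′ with the element in capitals.
Timp1 element: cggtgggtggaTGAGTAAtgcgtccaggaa

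The element covers bases 27 to 33 counted from the gene's start in that table, downstream of that start. Windows of 300 bases around the starts of the 5 members (250 before, 50 after) were searched for it on both strands, and of the 5 only that of Timp1 held it. Of all 32851 windows of this length in the RefSeq table, 2.68% held it on either strand. The AP-1 consensus was searched as TGAGTCA, found in 0 of the 5 members and in 5.2% of all windows. The spaced palindrome bound by STAT factors was searched as TTCNNNGAA, and 0 of the 5 members and 8.3% of all windows held it. For a TATA box the letters TATAAA were searched, with 0 of the 5 members and 13.6% of all windows holding them. These matches describe letters in a window, and factor binding was not measured.

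The genes whose values across the 4 libraries were most like those of each member were ranked by Euclidean distance between centred log2 CPM values, over 9157 candidates whose mean reached 5 CPM. For Timp1 these were Fzd9 (distance 0.167), Fxyd3 (0.212) and Nrep (0.315), for Timp2 Wnk4 (0.015), Siglecg (0.063) and Cnn3 (0.073), and for Timp3 Jade2 (0.055), Fat1 (0.056) and Wdr90 (0.062). For Timp4 they were Man2c1 (0.062), Emc6 (0.064) and Rce1 (0.078), and for Reck Adamts2 (0.027), Anxa4 (0.034) and Rabgap1 (0.080). The distances were largest for Timp1. Fzd9 had 2.67 sham and 7.09 DMM CPM in M04, with 3.81 and 6.57 CPM in M05. With 4 libraries many genes lie close to any pattern, and no test was made.

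Markers of other cell types that the dissected tissue could hold were read beside these values. Of 9 tested fibroblast markers 3 were higher in DMM (Col3a1, Dpt and Clec3b). Beside this and the counts of calls that follow, 0.633% of all genes tested were called higher. Pdgfra and Pi16 were below sham in both mice. All 11 listed summed to 179 sham and 532 DMM CPM in M04, with 157 and 279 CPM in M05. Col3a1, a collagen of fibrous tissue, made up most of this difference, with 75.6 sham and 394 DMM CPM in M04 and 43.9 and 150 CPM in M05. Without it the other 10 summed to 103 sham and 138 DMM CPM in M04 and 113 and 129 CPM in M05. In this list the tendon genes Scx and Tnmd were at 0 in the sham library of M04. Chondrocyte markers were higher in 6 of 13, with median log2 ratios of 0.26 in M04 and 1.57 in M05, whose sham library stood apart. Osteoblast markers were higher in 2 of 10 (Alpl and Ibsp). The osteoblast sum was 6500 sham and 7210 DMM CPM in M04 and 5290 and 6090 CPM in M05. Of 8 markers of vessel-wall cells 1 was higher, namely Cspg4. Ibsp and Cspg4 passed narrowly, with adjusted p-values of 0.0486 and 0.0415 in edgeR. All marker calls in this paragraph were lost without the mouse term and with limma at either pseudocount. Those settings kept 0 of the 85 calls of the reported fit. Osteoclast sums were 570 sham and 831 DMM CPM in M04 and 644 and 697 CPM in M05, and those of vessel-wall cells 104 and 124 CPM and 85.9 and 94.9 CPM. The fibroblast, chondrocyte, osteoblast, osteoclast and vessel-wall sums were thus above sham in both mice, as all 5 members were. Single markers were above sham in both mice in 13 of 13, 8 of 10 and 7 of 9 for chondrocytes, osteoblasts and fibroblasts. For vessel-wall cells it was 3 of 8, with 2 below in both, and for osteoclasts 2 of 6, beside 23.2% of all genes tested. The largest gains within these 2 sums in M05 were Cspg4 (6.33 to 16.2 CPM) and Ctsk (246 to 308 CPM), while Acp5 went from 366 to 357 CPM. Erythroid sums were below sham in both, at 246000 sham and 187000 DMM CPM in M04 and 320000 and 260000 CPM in M05. Of the 7 erythroid genes 5 were lower in both mice, as were 3123 of all 13103 genes tested. Hba-a1 and Hba-a2, both among the 5, had nearly the same counts in every library, so they are not separate readings. The part of these shifts in the differences of Timp1 and the other members was not tested. Markers of macrophages (8 tested), osteoclasts (6), adipocytes (5) and erythroid cells (7) had 0 calls in edgeR, each with 1 at an unadjusted p under 0.05. Those of neutrophils (8), megakaryocytes (9), endothelium (8) and skeletal muscle (7) had 0 calls and 0 at that p. Macrophage sums lay between 877 and 957 CPM and megakaryocyte sums between 1300 and 1650 CPM. The sums for skeletal muscle had opposite signs in the mice, with 143 sham and 382 DMM CPM in M04 and 505 and 156 CPM in M05.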

How the data were processed

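The deposited table holds estimated counts per gene (expected counts), of which 9.21% to 10.9% per library were not whole, and a second copy of each column that equalled the first in all 24421 rows and was ignored. The deposited FPKM table was scaled by the authors for transcript length and depth. Per the submitters' processing notes, reads were placed on GRCm39 (mm39). The aligner, counter and annotation were not stated in any source used here. Libraries were poly(A) selected and read as single ends, per the labels' protocols. The labels and column names gave group and mouse. The free text of both sham samples mentions a DMM knee, and their titles and treatment field were followed.

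Rounded counts went into edgeR 4.0.16 under R 4.3.3 (filterByExpr, 13103 genes kept; TMM; quasi-likelihood with robust moderation; terms for mouse and surgery). P-values were adjusted over all genes by Benjamini-Hochberg with a threshold of 0.05. Each SE was derived from the fold change and its F statistic. The 95% intervals of fold changes use these SEs and the normal distribution. The pairing by mouse comes from the labels, which give both knees of an animal 1 number, and same-mouse deviations correlated at 0.13 across genes. For all 5 members the moderation put full weight on the trend across genes. Log2 ratios of CPM per mouse use a prior count of 2, while the fold ratios per mouse and the exact intervals use no prior count. Alternatives used DESeq2 1.42.0 and limma 3.58.1, the latter on log2(FPKM + 1) and log2(FPKM + 0.1). Sequences came from RefSeq (5 of 5 members matched) and GENCODE tables of GRCm38.

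The members and gene lists were chosen with earlier results of these data known. Of each list, genes past the threshold or, otherwise, up to 4 with the highest mean FPKM were named by rule, and others such as Fos, Osmr, Il11, A2m, Adgra2, Mmp13 and the aggrecanases were named for their known roles after values were seen. Gene lists were read as named in the files, where Cep295nl, Ddc8, Snorc and Ly6g had no row and Cnmd, held under its older symbol Lect1, was not matched.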

Additional observations from a re-analysis of the deposited data

How the results depend on the processing

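The number of genes past the threshold in DMM against sham was 85, and it was 0 with no replicate block, 35 with DESeq2 size factors, 25 with TMM without haemoglobin rows, 12 in DESeq2, 1 with limma at either pseudocount and between 0 and 121 when 1 library was left out. For M05 against M04 it was 341, and 0 with no replicate block, 186 with DESeq2 size factors, 113 with TMM without haemoglobin rows, 92 in DESeq2, 0 with limma and between 0 and 331 when 1 library was left out. The paired fit is the reported one. Timp1 in DMM kept its direction in all 13 alternatives and its call in 7. It missed the threshold at 1.11 with no replicate block, at 1.09 and 1.12 with limma on log2(FPKM + 1) and log2(FPKM + 0.1), and in 3 of the fits that leave out a library, whose range was 0.93 to 1.32. Timp2 and Timp4 kept their direction in every alternative. Timp3 ranged from -0.07 to 0.58 and Reck from -0.05 to 0.58 when a library was left out. Between the mice, Timp3 kept its direction and lost its call at -0.59 with no replicate block, at -0.59 with TMM without haemoglobin rows, at -0.56 and -0.59 with limma, and in 3 of the fits that leave out a library (range -0.72 to -0.47). Timp1 ranged from -0.38 to 0.95 there. The mean log2 change of the TIMP to MMP ratio was 0.584, 0.234 without Mmp8 and Mmp9 and 0.271 without Timp1. Leaving out a library also drops the second term, so the other factor enters those values. The cause of the other changes was not tested. Timp4 has no value in the filter at a mean of 5 CPM, which it fails. Depth limits Timp4 (23 to 44 counts) and Reck (71 to 136 counts) most.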

Other observations

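Some proteases with low counts had large ratios of 1 sign in both mice and did not pass the test. Adamts7, a protease of the matrix protein Comp, had 0.444 and 2.47 CPM in the sham and DMM libraries of M04 and 0.411 and 1.4 CPM in those of M05 (log2 fold change 2.11, SE 0.82, adjusted p = 0.499). Mmp16, a membrane-bound MMP, had 2.30 and 0.869 CPM in M04 and 3.52 and 0.903 CPM in M05 (-1.67, SE 0.64, adjusted p = 0.482). Both genes were picked after their values were seen.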
